A study of Mus musculus with 10 samples.

Results

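The mitochondrial ribosomal proteins were followed as RNA in splenic Ly6Chigh monocytes of the mouse, as every gene whose symbol starts with Mrps or Mrpl and a number and that reached a TPM of 1 or more in at least 3 of 10 RNA sequencing libraries. TPM is the share of a gene in the RNA of a library, corrected for length, on a scale where a library sums to 1000000. Of 24421 gene symbols, 77 matched and all 77 passed the level filter, 29 of them named Mrps and 48 named Mrpl. Across all genes, 12938 of 24421 symbols passed the same filter and were tested.

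The mitochondrial ribosome sits inside the mitochondrion and translates the few proteins that mitochondrial DNA still encodes, which are core subunits of the respiratory chain and of ATP synthase. Its RNAs are transcribed from mitochondrial DNA, whereas its proteins are encoded in the nucleus, made in the cytosol and imported, so a complete particle needs the output of many separate nuclear genes. The small subunit reads the mRNA, and the large subunit joins the amino acids and passes the new chain to the inner membrane.

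The study asked how myocardial infarction (MI) and the loss of CD4+ Foxp3+ regulatory T-cells change these monocytes. MI was made by tying off a coronary artery for good, and sham surgery opened the chest without the ligation. The groups were WT mice (C57BL/6) after sham surgery (3 libraries), WT mice after MI (3 libraries) and Foxp3DTR mice after MI (4 libraries), all taken on day 5 after surgery. Per the study's methods, all mice were male and 8 to 10 weeks old, and the Foxp3DTR line expresses the human diphtheria toxin receptor from the Foxp3 promoter, which limits the receptor to Foxp3-expressing cells. Toxin was given for ablation at 500 ng on days 2 and 1 before surgery and at 250 ng on day 2 after it, and the study describes the WT mice of the MI comparison as toxin-treated too. For the ablation experiments the methods give the late dose after sham surgery as well, but they do not say whether the sham libraries used here came from toxin-treated mice. Foxp3DTR mice without toxin were not analysed here, so genotype and Treg loss cannot be told apart, and neither were Foxp3DTR mice after sham surgery, so a comparison with sham mixes both with surgery. The study counts the replicates of its sequencing data as animals, while the labels give only replicate numbers, and the p-values measure the spread between these libraries.

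The sort kept CD11b+ Ly6G- F4/80+ Ly6Chigh CD115+ cells after T-cells and B-cells had been removed, and each library was made from 20 to 50 pg of RNA. Depth, estimated from the ratio of coverage to FPKM with reads of 50 bases, was 3128000 to 8395000 reads, with sham replicate 2 the shallowest. The study's methods give a larger number of sequenced reads, and its gap to this estimate was not examined. All 8 monocyte markers passed the level filter, and Ly6c2 lay at 1524 to 2605 scaled TPM in sham, 2160 to 3141 in WT MI and 3228 to 5029 in Foxp3DTR MI libraries. The 8 markers summed to 33950 to 47270 scaled TPM in sham, 39230 to 43790 in WT MI and 21590 to 34570 in Foxp3DTR MI libraries, without overlap between the 2 MI groups. Taken singly, 5 of the 8 had a positive log2 fold change in Foxp3DTR MI against WT MI and 3 a negative one. Their median was 0.06, so the lower sum is not shared by all 8. Csf1r, the receptor sorted for as CD115, lay at 542.8 to 897.5 in sham, 690.8 to 766.2 in WT MI and 466.1 to 608.6 in Foxp3DTR MI libraries. Neutrophil markers (13 of 13 tested) summed to 621.4 to 1521 scaled TPM in sham, 398.1 to 688.6 in WT MI and 1291 to 2939 in Foxp3DTR MI libraries, and 3 of the 13 were higher in Foxp3DTR MI than in WT MI by limma (adjusted p under 0.05). T-cell markers (12 of 13 in the tables) summed to 20.8 to 203.1, 19.0 to 22.1 and 45.8 to 158.2 scaled TPM in the same order, with Cd3e at 0 in at least 1 WT MI library. Sham replicate 3 held the highest sums of T-cell (203.1) and erythroid markers (234.5) of all 10 libraries. The 18 proliferation genes summed to 312.4 to 685.4, 313.9 to 937.2 and 615.6 to 1268 scaled TPM in sham, WT MI and Foxp3DTR MI. WT MI replicate 2 held the 937.2. All 18 had a positive log2 fold change in Foxp3DTR MI against WT MI, 11 of them at an unadjusted p under 0.05 by limma. That p was reached by 17.7% of all genes, and 0 of the 18 had an adjusted p under 0.05. Of 4 B-cell markers tested, 1 was lower there (adjusted p 0.0496 by limma). The part of all these genes in the values below was not tested. Within bulk RNA of this kind, a change in cell numbers and a change of RNA per cell cannot be told apart.

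Many of these genes shared a short stretch of DNA with a neighbour that is transcribed the other way. By the positions in the tables, which use mm10 (GRCm38), 22 of 77 (28.6%) had a head-to-head gene whose start lay within 300 bases, against 10.3% of 11028 single-locus protein-coding genes tested, 12.2% of 82 cytosolic ribosomal protein genes and 23.7% of 76 genes for subunits of oxidative phosphorylation. These shares describe the genome and were not tested against each other. In 1 locus both genes were mitochondrial ribosomal proteins: Mrpl46, a large-subunit protein of the central protuberance, and Mrps11, a small-subunit protein of the mRNA channel, start 41 bases apart. Sars2, which charges serine tRNA in mitochondria, starts 186 bases from Mrps12, the decoding centre protein, and Peo1, the replicative helicase of mitochondrial DNA, starts 115 bases from Mrpl43. Ptcd2, a mitochondrial RNA-binding protein, starts 107 bases from Mrps27. Other partners serve the rest of the cell, such as Eme1 and Eme2, subunits of DNA endonucleases, Ska3 of the kinetochore, Psma2 of the proteasome and Tcp1 of the cytosolic chaperonin.

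The stretches between the starts of the pairs named above are shown. They are the whole DNA between a mitochondrial ribosomal protein and its partner. They come from the RefSeq promoter windows of GRCm38.p6 and are written 5′ to 3′ on the strand of the mitochondrial ribosomal protein. Capitals mark the letters CGGAAG, the core that ETS factors such as GABP bind, or GCGC, any 1 base and TGCGC in a row, the core of the nuclear respiratory factor 1 (NRF1) motif, on either strand, where CGGAAG reads CTTCCG on the other one.
Mrpl46 and Mrps11, chr7:78783090-78783130, minus strand: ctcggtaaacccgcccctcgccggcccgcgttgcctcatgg
Mrps12 and Sars2, chr7:28741782-28741967, minus strand: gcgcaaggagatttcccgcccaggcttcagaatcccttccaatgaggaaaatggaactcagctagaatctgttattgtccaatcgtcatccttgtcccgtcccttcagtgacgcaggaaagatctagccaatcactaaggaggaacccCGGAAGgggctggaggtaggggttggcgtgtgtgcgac
Mrpl43 and Peo1, chr19:45006443-45006557, minus strand: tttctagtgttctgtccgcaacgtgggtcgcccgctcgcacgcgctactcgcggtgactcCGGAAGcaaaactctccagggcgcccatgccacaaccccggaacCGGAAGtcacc
Mrps27 and Ptcd2, chr13:99344679-99344785, plus strand: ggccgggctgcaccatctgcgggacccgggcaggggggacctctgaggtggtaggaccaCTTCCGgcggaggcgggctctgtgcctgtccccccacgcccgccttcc
Mrpl27 and Eme1, chr11:94653755-94653790, plus strand: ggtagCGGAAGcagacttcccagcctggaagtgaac
Mrps34 and Eme2, chr17:24895088-24895119, plus strand: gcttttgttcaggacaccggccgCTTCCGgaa
Mrpl57 and Ska3, chr14:57826164-57826238, plus strand: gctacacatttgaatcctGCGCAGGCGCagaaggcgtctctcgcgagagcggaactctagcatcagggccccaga
Mrpl32 and Psma2, chr13:14613038-14613241, minus strand: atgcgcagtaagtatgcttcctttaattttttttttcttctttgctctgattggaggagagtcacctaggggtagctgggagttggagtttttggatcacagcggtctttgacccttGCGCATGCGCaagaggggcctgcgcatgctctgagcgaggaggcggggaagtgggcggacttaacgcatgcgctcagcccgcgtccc
Mrpl18 and Tcp1, chr17:12916092-12916328, minus strand: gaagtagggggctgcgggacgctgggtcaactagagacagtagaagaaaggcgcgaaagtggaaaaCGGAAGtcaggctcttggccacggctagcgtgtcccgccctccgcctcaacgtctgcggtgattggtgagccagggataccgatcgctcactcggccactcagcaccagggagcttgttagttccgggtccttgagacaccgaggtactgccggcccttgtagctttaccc

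The Mrpl46 and Mrps11 stretch held neither core, the Mrpl43 and Peo1 stretch held CGGAAG at 2 places, and those of Mrpl57 and Mrpl32 held the NRF1 core. Of the stretches searched but not shown, those of Mrpl10, Mrpl14, Mrpl30 and Mrps18c held 1 match each. Those of Mrpl21, Mrpl40, Mrpl49, Mrpl50, Mrpl55 and Mrps7 held none. RefSeq promoter windows, from 250 bases before to 50 after a start, were matched by symbol for 68 of 77 genes. The start in the window and the start in the tables were the same base for 45 of 68 and lay within 50 bases for 58. CGGAAG occurred on either strand in 38 of 68 windows (55.9%), against 18.8% of all 27025 windows, 36.1% of the windows of protein-coding genes tested, 66.7% of those of cytosolic ribosomal proteins and 42.6% of those of oxidative phosphorylation. The NRF1 core occurred in 13 of 68 windows (19.1%), against 5.19% of all windows and 11.9% of protein-coding genes tested. It occurred in 27.9% of the windows of oxidative phosphorylation and in 9.52% of those of cytosolic ribosomal proteins. Both cores were found in 7 of the 68 windows and at least 1 of them in 44. TATAAA, the TATA box, occurred in 5 of 68 windows (7.35%), against 15.7% of all windows and 8.77% of protein-coding genes tested. GGGCGG, the GC box, occurred in 50% of the 68 windows and in 67.0% of protein-coding genes tested. It occurred in 61.9% of the windows of cytosolic ribosomal proteins and in 37.7% of those of oxidative phosphorylation. The searches covered both strands. GGGCGG and CGGAAG can share letters where they meet, and a match describes letters and not a bound site.

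**Figure D1:**
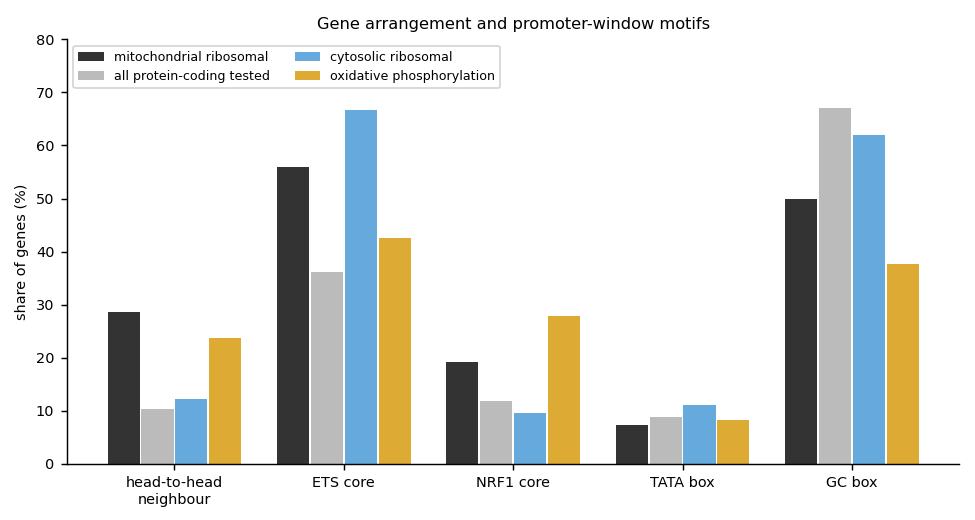
Share of genes, in percent, with a head-to-head neighbour within 300 bases and with each motif in the RefSeq promoter window, for the mitochondrial ribosomal proteins and for 3 other sets of genes, 1 bar per set. The mitochondrial ribosomal proteins have the highest share of head-to-head neighbours (28.6%), and their ETS core share (55.9%) lies between those of all protein-coding genes tested (36.1%) and of cytosolic ribosomal proteins (66.7%).

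All levels below are scaled TPM, that is, TPM divided by a library's median-of-ratios size factor. The level of a gene, as the mean over the 10 libraries, had a median of 32.8 scaled TPM over the 77 genes, and 42 of 77 lay between 20 and 50. Most of these proteins stand in equal number in the finished particle, and their RNAs spanned 40.7-fold. The median level of the 25 small-subunit genes was 33.4 scaled TPM and that of the 49 large-subunit genes 34.0. Mrps28, Mrps36 and Mrpl55 were assigned to neither set.

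Mrpl33, a small protein of the large subunit that bacteria also have, was the most abundant at 298.5 scaled TPM. Its levels were 256.6, 449.5 and 277.5 in sham, 400.9, 251.4 and 290.9 in WT MI, and 264.6, 225.9, 232.1 and 335.4 in Foxp3DTR MI libraries. The groups overlapped, and the highest library was the shallowest one. Mrpl52, a large-subunit protein found in mitochondria and not in bacteria, followed with a mean of 173.3 scaled TPM. It was among the 3 genes with the widest spread between libraries of a group (SD 0.43 on the log2 scale, with Mrpl14 at 0.47 and Mrpl21 at 0.43), and in WT MI alone it lay at 235.9, 126.2 and 290.8. Mrps21 (113.6), Mrpl30 (98.2) and Mrpl32 (91.9) came next.

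The lowest levels were those of Mrpl41 (7.33 scaled TPM), Mrps6 (7.68), Mrpl17 (11.6), Mrps27 (12.5) and Mrpl11 (13.01). The ranges of the 10 libraries overlapped between neighbours in this order. At the estimated depth and annotated length, Mrps6 rested on 4.88 to 24.95 reads per library and Mrpl33 on 220.9 to 407.7. Over the 77 genes, the median was 116.4 estimated reads in a gene's middle library. The spread between libraries of a group had a median SD of 0.22 on the log2 scale over the 77 genes, against 0.25 over all genes tested.

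**Figure D2:**
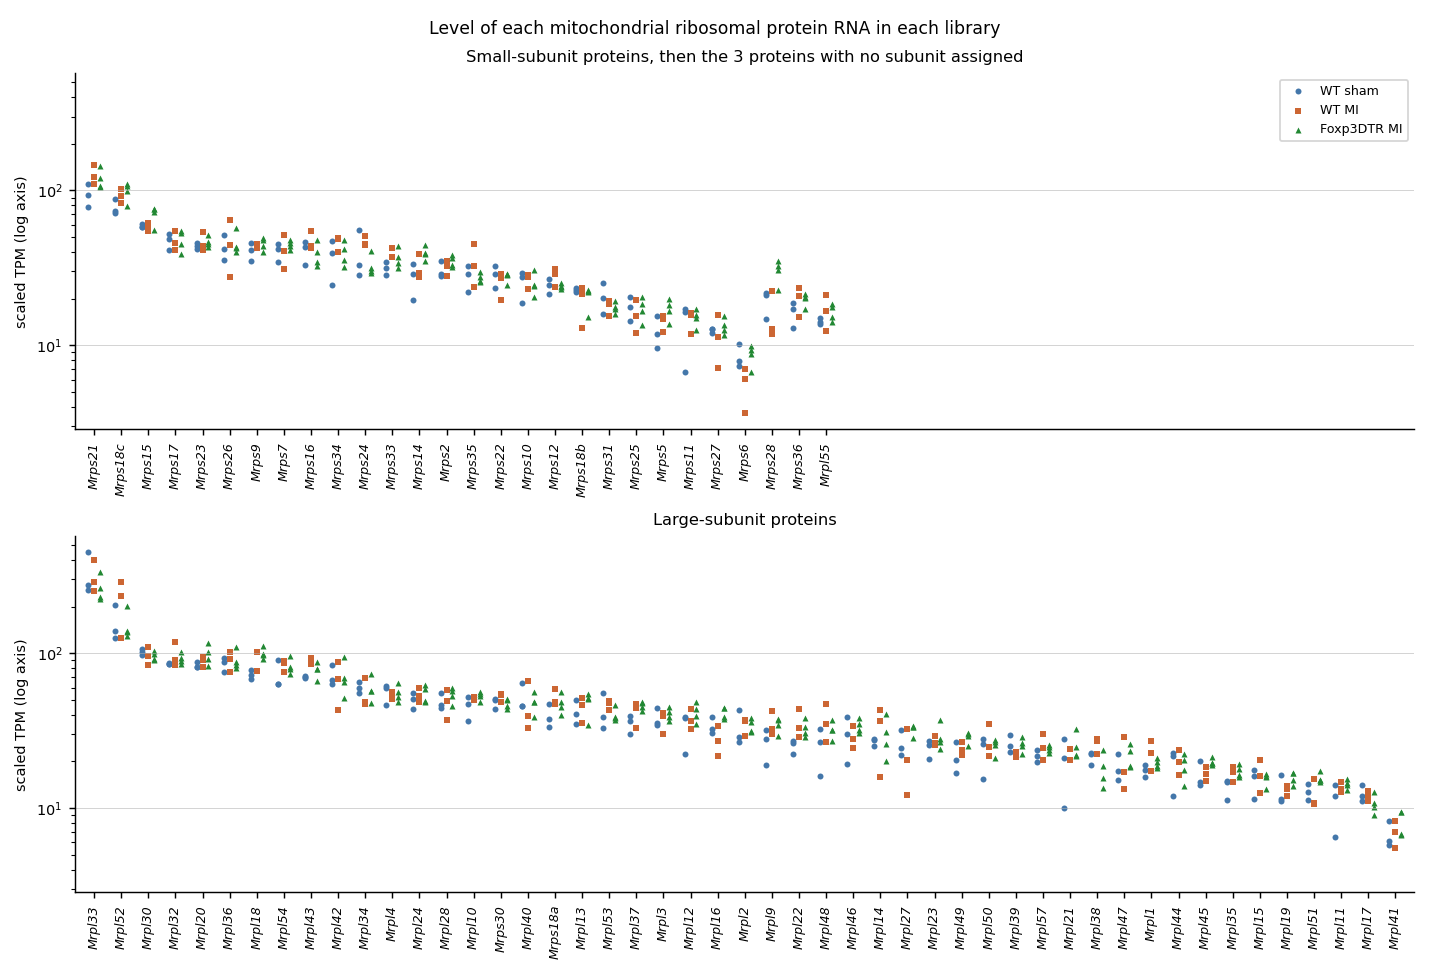
Level of each of the 77 genes in each of the 10 libraries in scaled TPM on a log axis. Small-subunit genes are above, followed by the 3 genes assigned to neither set, and large-subunit genes are below. Each set is ordered by mean level, and the symbol of a point gives its group. The points of the 3 groups overlap for most genes, Mrpl33 stands highest (298.5 on average), and Mrpl41 lowest (7.33).

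By site in the ribosome, the stalk that recruits translation factors was represented by Mrpl10 at 49.9, Mrpl12 at 37.9 and Mrpl11 at 13.01 scaled TPM. In the mRNA channel and decoding centre, Mrps7 stood at 42.3, Mrps12 at 25.4, Mrps5 at 14.8 and Mrps11 at 14.4. Around the polypeptide exit and the membrane, Mrpl24 reached 52.9, Mrpl22 31.2, Mrpl23 27.0 and Mrpl39 24.7, whereas Mrpl44 and Mrpl45, the protein that holds the ribosome to the inner membrane, lay at 19.0 and 17.8. In the central protuberance, Mrpl40 was at 48.5, Mrpl48 at 31.2, Mrpl46 at 31.0 and Mrpl38 at 21.3. These levels are corrected for length and so can be set side by side between genes.

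The 3 Mrps18 paralogs, which occupy different places in the particle, ranked in the same order in all 10 libraries. Mrps18c lay at 71.6 to 110.4 scaled TPM, Mrps18a at 33.6 to 59.0 and Mrps18b at 12.9 to 23.6. Their ranges over the 10 libraries did not overlap.

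Summed over the 77 genes, the level was 3054, 3259 and 3206 scaled TPM in sham, 3874, 3072 and 3396 in WT MI, and 3409, 3241, 3166 and 3787 in Foxp3DTR MI libraries. The groups overlapped, with means of 3173 ± 106.6 (SD, n = 3), 3447 ± 403.3 (n = 3) and 3401 ± 276.4 (n = 4). On TPM as deposited, the genes made up 0.291 to 0.387% of a library, and the Foxp3DTR MI libraries (3420 to 3873) included the 3 highest, while WT MI replicate 2 (3560) lay within their range. The 10 most abundant RNAs of a library took 20.6 to 24.2% of TPM in sham, 24.8 to 30.4% in WT MI and 17.3 to 23.0% in Foxp3DTR MI libraries, and scaling removes such a shift in total share. The sum of small-subunit genes was 0.371 to 0.418 of the sum of large-subunit genes, with group means of 0.383 in sham, 0.392 in WT MI and 0.401 in Foxp3DTR MI.

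**Figure D3:**
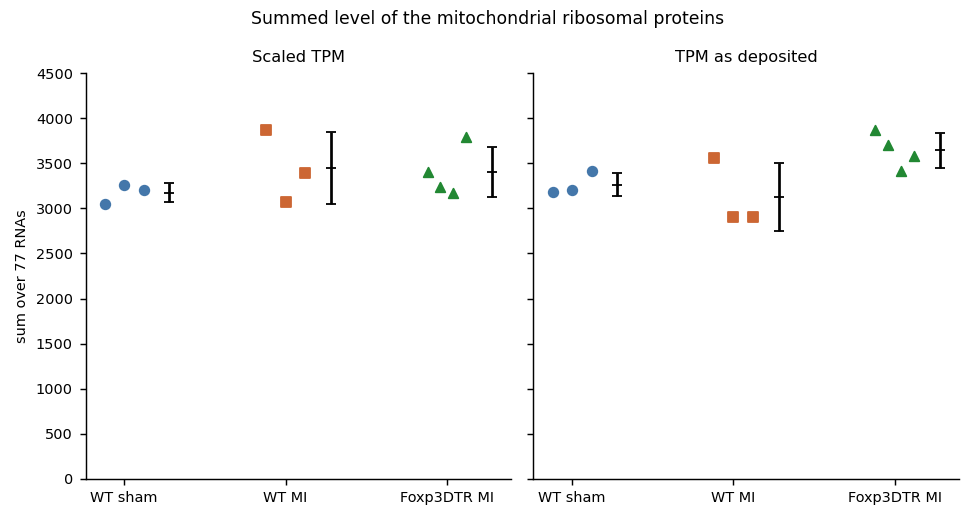
Summed level of the 77 genes per library in scaled TPM (left) and in TPM as deposited (right), with 1 point per library and the mean ± SD of the group beside it. The scaled sums of the 3 groups overlap (3054 to 3259 in WT sham, 3072 to 3874 in WT MI, 3166 to 3787 in Foxp3DTR MI).

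The comparison of Foxp3DTR MI with WT MI addressed Treg depletion after MI. None of the 77 genes differed at an adjusted p under 0.05 by limma with Benjamini-Hochberg adjustment over all genes tested (0 called, against 1.12% of all genes). At an unadjusted p under 0.05, 4 genes were higher and 2 lower (6 of 77), against 17.7% of all genes. On unscaled TPM that count was 22, with 72 of 77 positive. Over all 12938 genes tested it was 3474 there, with 9788 positive. For the 77 genes it was 11 without WT MI replicate 2, in a range of 4 to 11 over single libraries left out. The calls over all genes, 145 in number, ran from 0 without WT MI replicate 2 (2424 at an unadjusted p under 0.05) to 431 without sham replicate 2 by limma. The libraries of both groups did not overlap for 5 of 77 genes, 4 higher and 1 lower, against 19% of all genes. The median log2 fold change was 0.05 over the 77 genes, of which 46 were positive, and 0.00 over all genes tested, and without WT MI replicate 3 it was −0.03 with 37 positive. Left unscaled, TPM moved the median of all genes tested to 0.22 and that of the 77 genes to 0.28, so the excess of the 77 over all genes stayed small. For 73 of 77 genes (94.8%) the 95% confidence interval lay within a 2-fold change either way, against 73.6% of all genes, and for 48 genes it lay within 1.5-fold. An adjusted p above the threshold does not show that the levels were equal.

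Mrps28, a protein named for the small subunit and encoded on chromosome 3 (8802146 to 8923857, minus strand), had the lowest p. It stood at 22.4, 12.8 and 11.8 scaled TPM in WT MI and at 30.7, 22.7, 32.7 and 35.1 in Foxp3DTR MI libraries, beside 21.7, 14.8 and 21.0 in sham. The 2 MI groups did not overlap, but the highest WT MI and the lowest Foxp3DTR MI library were nearly level. The log2 fold change was 0.94 ± 0.23 (SE), with an adjusted p of 0.080 by limma, and 0.0284 on unscaled TPM.

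Mrpl16, a large-subunit protein near the catalytic centre that bacteria also have (chromosome 19, 11770415 to 11774946, plus strand), was similar in pattern. Its levels were 34.1, 27.2 and 21.7 scaled TPM in WT MI and 44.2, 37.7, 39.0 and 44.4 in Foxp3DTR MI libraries. Every Foxp3DTR MI library was above every WT MI library, whereas the sham libraries (32.5, 30.5 and 38.6) overlapped both. The log2 fold change was 0.58 ± 0.15 (SE), with an adjusted p of 0.093 by limma, and 0.0359 on unscaled TPM.

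Mrps6 (log2 fold change 0.58, adjusted p 0.219), Mrpl27, a neighbour of the peptidyl transferase centre (0.65, 0.228), and Mrps15 (0.26, 0.284) had the next lowest p of those above 0 by limma. Mrpl27 ranged from 12.1 to 32.2 scaled TPM in WT MI and from 28.5 to 33.9 in Foxp3DTR MI, so that 1 WT MI library lay among the Foxp3DTR MI libraries and 2 below. The gene model of Mrps6 spans that of Slc5a3 on the same strand for 29138 bases, and reads there cannot be assigned with certainty.

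On the other side, Mrpl38, a protein of the central protuberance with no bacterial counterpart, stood at 28.1, 22.4 and 27.1 scaled TPM in WT MI and at 15.6, 13.5, 18.7 and 23.7 in Foxp3DTR MI libraries (log2 fold change −0.53 ± 0.18, adjusted p 0.169 by limma). Mrps24, which lines the entry of the mRNA channel, stood at 50.8, 44.6 and 45.4 in WT MI and at 31.5, 29.3, 30.3 and 40.4 in Foxp3DTR MI libraries (−0.51 ± 0.21, adjusted p 0.231). For Mrps24 the 2 MI groups did not overlap, and the sham libraries (28.5, 55.7 and 32.8) covered both. Mrpl43 (−0.18, and 0.057 on unscaled TPM), Mrps16 (−0.28) and Mrpl52 (−0.45) completed the 5 lowest p on this side, with adjusted p from 0.369 to 0.429 by limma.

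**Figure D4:**
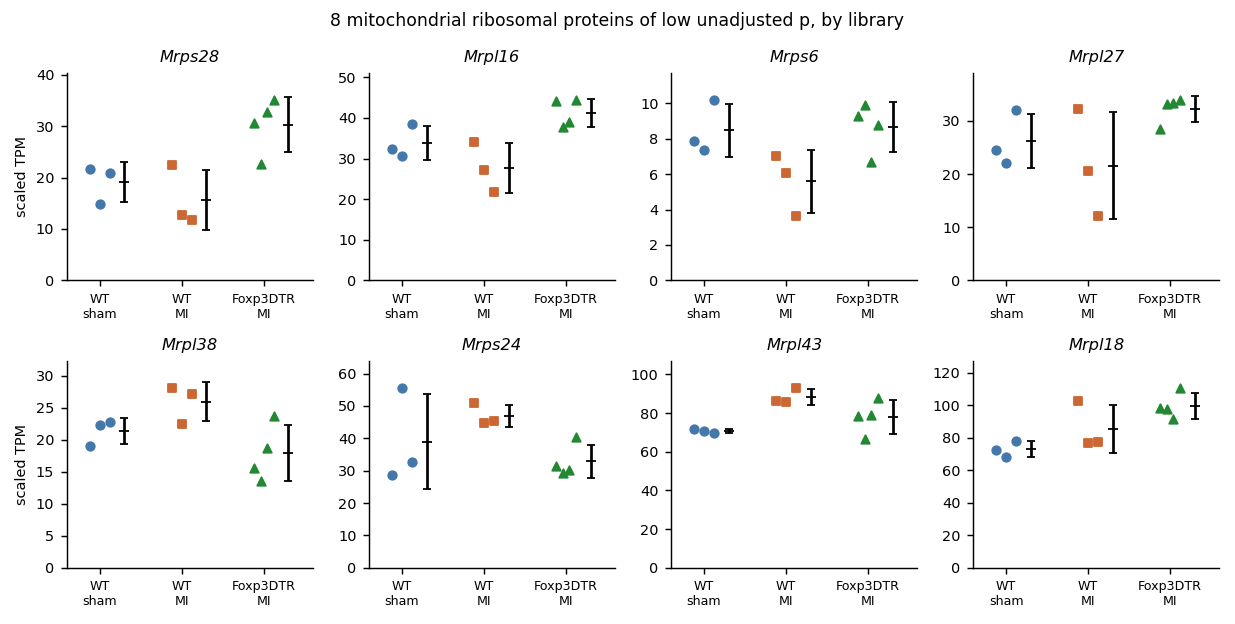
Scaled TPM of 8 genes of low unadjusted p in each library by group, with the mean ± SD of the group beside the points and each axis from 0. Mrps28 and Mrpl16 are higher in all 4 Foxp3DTR MI libraries than in the 3 WT MI libraries, while Mrpl38 overlaps between those groups.

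WT MI against WT sham addressed infarction with Tregs present, but may also mix in toxin, as its use in the sham libraries is not stated. Again 0 of 77 genes were called by limma (0% of all genes). At an unadjusted p under 0.05, 5 genes were higher and 1 lower, against 4.64% of all genes, and the groups did not overlap for 4 genes above and 1 below, against 6.91% of all genes. The median log2 fold change was 0.11 over the 77 genes, 55 of them positive, against 0.00 over all genes, whereas on unscaled TPM it was −0.065 with 30 positive, against −0.17 over all genes. The intervals of 74 genes lay within 2-fold.

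Mrpl43 of the large subunit had the lowest p here, at 71.7, 70.5 and 69.5 scaled TPM in sham and 86.1, 85.8 and 93.2 in WT MI libraries (log2 fold change 0.32 ± 0.11, adjusted p 0.960 by limma). Sham and WT MI did not overlap, and the Foxp3DTR MI libraries (78.6, 66.7, 78.7 and 87.8) covered the sham range and overlapped that of WT MI. Mrpl22, which lines the exit tunnel (log2 fold change 0.44), Mrps21 (0.43), Mrps18a (0.38) and Mrps33 (0.30) followed, all with an adjusted p of 0.960. Mrps6 was the gene of lowest p below 0, at 7.88, 7.35 and 10.2 scaled TPM in sham and 7.05, 6.08 and 3.63 in WT MI libraries (−0.55 ± 0.24, adjusted p 0.960). Mrpl16 (−0.30), Mrpl39 (−0.23), Mrpl27 (−0.35) and Mrps28 (−0.31) were next. These values moved with single WT MI libraries, and without replicate 4 they were −0.14 for Mrpl16, −0.0088 for Mrpl27, −0.15 for Mrps28 and −0.31 for Mrps6, whereas without replicate 2 they were −0.45, −0.68, −0.58 and −0.71. Mrpl39 was −0.13 without sham replicate 2. Mrps6 did not overlap between the groups, by a small margin, whereas the other 4 did.

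Foxp3DTR MI against WT sham shares its libraries with both other comparisons and mixes surgery, genotype and Treg loss, and possibly toxin. It also gave 0 called of 77 by limma, against 0.541% of all genes. At an unadjusted p under 0.05, 9 genes were higher and 0 lower, against 18.6% of all genes. That count was 16 without sham replicate 3 (3002 of 12772 over all genes) and 4 without sham replicate 2 (1435 of 12846). It was also 4 without Foxp3DTR MI replicate 4 (2022 of 12875 over all genes) or with a replicate block (2003 of 12938). For 7 genes, all higher, the groups did not overlap, against 18.2% of all genes. The median log2 fold change was 0.15 over the 77 genes, 56 of them positive, against −0.01 over all genes, and 75 intervals lay within 2-fold.

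Mrpl18, a large-subunit protein that bacteria also have, stood at 72.5, 68.2 and 78.3 scaled TPM in sham and at 98.7, 98.0, 91.8 and 111.0 in Foxp3DTR MI libraries. Sham and Foxp3DTR MI did not overlap, and 1 of the 3 WT MI libraries (102.7, 76.9 and 77.2) lay among the Foxp3DTR MI libraries. The log2 fold change was 0.45 ± 0.12 (SE), with an adjusted p of 0.114 by limma. Mrps14 (0.54, adjusted p 0.165), Mrpl49 (0.44, 0.176), Mrps28 (0.63, 0.192) and Mrpl37 (0.37, 0.206) followed by limma. Below 0, the lowest p belonged to Mrpl38 (−0.27), Mrpl17 (−0.20), Mrpl33 (−0.28), Mrps31 (−0.19) and Mrps24 (−0.19, and 0.089 without sham replicate 2), with adjusted p from 0.451 to 0.644.

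**Figure D5:**
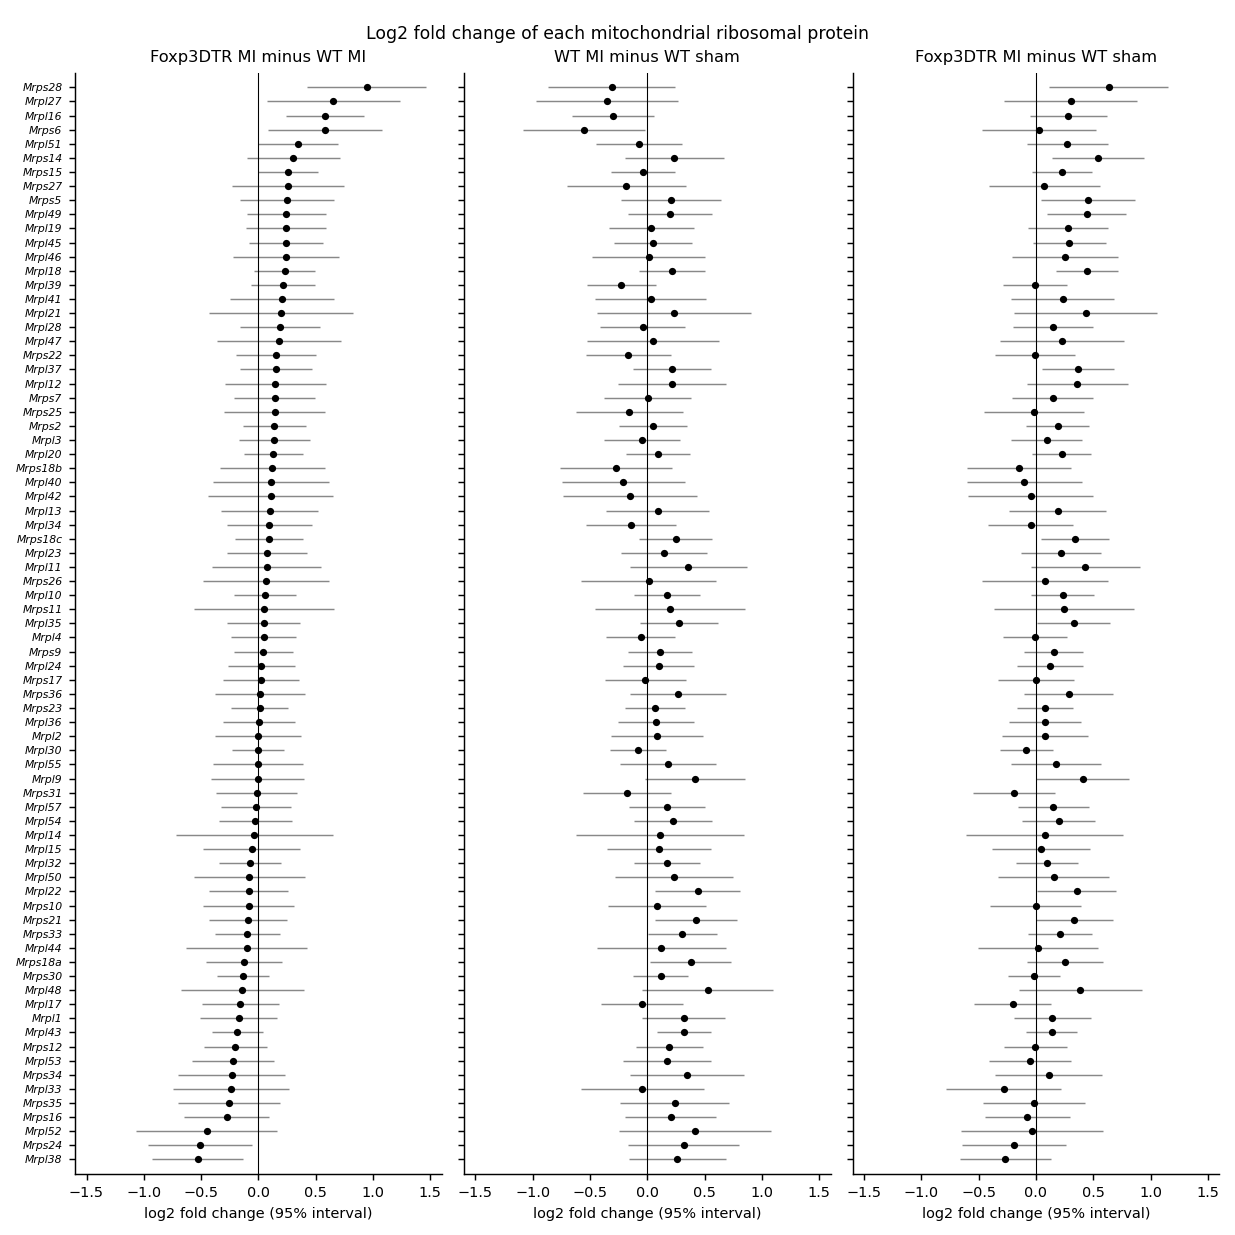
Log2 fold change of each of the 77 genes in the 3 comparisons, which share libraries, with the 95% confidence interval of limma as a bar and the genes ordered by the comparison of Foxp3DTR MI with WT MI. Most intervals cross 0, the values run from −0.53 (Mrpl38) to 0.94 (Mrps28) in the left panel, and none of the 77 passed the adjusted threshold in any panel.

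By subunit, the median log2 fold change of Foxp3DTR MI against WT MI was 0.05 for the 15 small-subunit proteins with a bacterial counterpart, 0.04 for the 10 that mitochondria have in addition and 0.06 for the 29 large-subunit proteins with a bacterial counterpart. For the mitochondria-specific large-subunit proteins, counted with Mrpl58, which the tables list as Ict1 and the symbol rule misses (21 genes), it was −0.02. The 38 genes with CGGAAG in their window had a median level of 38.3 scaled TPM and a median log2 fold change of 0.01, beside 28.2 scaled TPM and 0.11 for the 30 without it. Mrpl30 was counted with the 30 by its window, although the stretch between its start and that of its head-to-head neighbour held CTTCCG. The 22 genes with a head-to-head neighbour had a median level of 35.7 scaled TPM and the other 55 one of 32.8. Of the 20 neighbours that are no mitochondrial ribosomal proteins, 19 were tested and 0 were called in each of the 3 comparisons, with a lowest adjusted p of 0.0977 by limma for Fau, a cytosolic ribosomal protein made as a fusion with a ubiquitin-like protein. Fau, at 1344 scaled TPM on average, is read from the same 136-base stretch as Mrpl49 at 25.2.

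The other genes of mitochondrial translation were counted by lists. Of the 5 mitochondrial ribosomal proteins with other names, 0 were called in each comparison, and Aurkaip1 had the lowest p against WT MI (83.2 ± 7.83 scaled TPM in Foxp3DTR MI, n = 4, and 71.4 ± 1.61 in WT MI, n = 3, log2 fold change 0.21, adjusted p 0.521 by limma). Of 13 translation factors, 0 were called in each comparison, and those of lowest p in Foxp3DTR MI against WT MI were Mrrf, which recycles the ribosome (0.48, adjusted p 0.233 by limma), and Tufm, the elongation factor that brings tRNA (0.31, 0.279). Of 22 assembly factors, 0 were called. Rbfa, which helps the small subunit mature, had the lowest p of them, at 38.9, 50.0 and 50.7 scaled TPM in WT MI and 36.3, 35.2, 34.9 and 32.4 in Foxp3DTR MI libraries (−0.40 ± 0.12, adjusted p 0.131 by limma). On this scale every Foxp3DTR MI library was below every WT MI and sham library for Rbfa, while on unscaled TPM the log2 fold change was −0.17 with an adjusted p of 0.479.

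Of 9 genes for mitochondrial transcription and RNA and 17 mitochondrial tRNA synthetases, 0 were called in each comparison, with Polrmt, the mitochondrial RNA polymerase (−0.47, adjusted p 0.126 by limma), and Vars2, the valine enzyme (−0.42, 0.248), lowest in p for Foxp3DTR MI against WT MI. Among regulators of mitochondrial biogenesis, 9 of 10 were tested and 1 was called in 1 comparison. Ppargc1b, a coactivator of nuclear genes for mitochondria, stood at 3.51, 3.36 and 3.90 scaled TPM in sham, 3.798, 5.34 and 5.74 in WT MI, and 10.3, 8.94, 7.91 and 8.19 in Foxp3DTR MI libraries. It was higher in Foxp3DTR MI than in sham (log2 fold change 1.095 ± 0.18, adjusted p 0.0392 by limma) and, against WT MI, had a log2 fold change of 0.73 with an adjusted p of 0.0788, which on unscaled TPM was 0.94 with an adjusted p of 0.0376. All 4 Foxp3DTR MI libraries were above the other 6. With single libraries left out, the adjusted p against sham ran from 0.0197 to 0.134 by limma, and it was above 0.05 without any 1 Foxp3DTR MI library, sham replicate 1 or 2, or WT MI replicate 3 or 4. The call against sham was also lost with a replicate block (adjusted p 0.131), with no filter (0.0824), with only the 2 groups in the fit (0.0594) and with a pseudocount of 0.1 (0.0541) by limma. Ppargc1a, its better known relative, was listed at 0 in 9 of 10 libraries and was not tested.

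Beside them, the 82 cytosolic ribosomal protein genes tested had a median log2 fold change of −0.36 in Foxp3DTR MI against WT MI, 4 of them positive and 35 lower at an unadjusted p under 0.05 by limma. The 76 genes for subunits of oxidative phosphorylation had a median of 0.05, 49 of them positive, and 1 called higher (Ndufa5, a subunit of complex I, 0.84, adjusted p 0.0258 by limma), against 7 called on unscaled TPM. Ndufa5 had an adjusted p of 0.0646 to 0.0880 by limma without any 1 WT MI library or Foxp3DTR MI replicate 1, 2 or 3, 0.0872 with a replicate block and 0.0548 with no filter. Against sham, the medians for Foxp3DTR MI were −0.20 and 0.23 in the same order, beside 0.15 for the mitochondrial ribosomal proteins. Without scaling, the medians against WT MI were −0.11 and 0.29 in the same order. The difference between these lists was not tested.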

How the data were processed

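RNA of sorted splenic Ly6Chigh monocytes had been sequenced by the authors in 10 libraries of 3 groups, which were taken from the sample labels. Per the labels' processing notes, CASAVA 1.4, cutadapt 1.1, STAR 2.5 and StringTie 1.3.0 were used with mm10. The study's methods name GENCODE annotation, BEDTools counts and a count model, but the tables hold no counts, so no count test was run. The deposited tables of the authors give TPM, FPKM and coverage (signal) per gene. TPM was summed per gene symbol and divided by median-of-ratios size factors. Genes at a TPM of 1 or more in at least 3 libraries (12938) were tested with limma 3.58.1 (R 4.3.3, lmFit and eBayes with trend, two-sided) on log2(scaled TPM + 1), with all 10 libraries in 1 fit and Benjamini-Hochberg adjustment at 0.05. This scale understates the changes of low genes. The steps were tested on simulated data with the spread of all genes tested. There, 48 to 58.5% of 200 genes given a log2 fold change of 1 were called, depending on the comparison. The members and lists were chosen with earlier results of these data known. Genes were named by rule: the 5 of lowest p each way per comparison, the 5 highest and 5 lowest in level, the 3 of widest spread, the site lists and, per other list, those called and the 2 of lowest p. Head-to-head pairs and promoter motifs were described afterwards. Alternatives covered scaling (none, quantile), FPKM, pseudocount (0.1, 5), filter, samples in the fit, variance trend, robust and weighted fits, a replicate block and leaving out each library. The values of a single gene outside the 77 were left out and are not reported here.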

Additional observations from a re-analysis of the deposited data

Results flagged for a closer look

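In the Foxp3DTR MI group, the 4 libraries of each of the 77 genes were examined for 1 library far from the other 3, by Dixon's test on its gap to the nearest of them, and 5 genes had one. Chance marks about 1 in 20 groups of libraries. Mrpl27 was low in replicate 1 at 28.5 scaled TPM, with the others at 33.2 to 33.9. Mrps15, a small-subunit protein that bacteria also have, was low in replicate 2 at 55.5, with the others at 72.6 to 75.7. Mrps18b was low in replicate 3 at 15.3 (others 22.2 to 22.8), and so was Mrps22 at 24.6 (others 28.5 to 28.9), both proteins of the small subunit. Mrpl52 was high in replicate 4 at 202.6, with the others at 130.2 to 138.4. The cause was not tested.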

How the results depend on the processing

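Without scaling of TPM, 2 genes (Mrps28, adjusted p 0.0284, and Mrpl16, 0.0359, by limma) were called in Foxp3DTR MI against WT MI, and the median log2 fold change of the 77 genes was 0.28 there and −0.065 in WT MI against WT sham, while the ratio of the group means of the summed level was 1.17 and 0.958 in these comparisons, against 0.987 and 1.09 with scaling. Scaling sets the median over all genes near 0 by construction. Mrpl43 reversed to 0.057 in Foxp3DTR MI against WT MI without scaling, and Mrps24 to 0.089 in Foxp3DTR MI against WT sham without sham replicate 2, in a range of −0.38 to 0.089 over single libraries left out. Array weights called 1 gene (Mrps28, adjusted p 0.0470 by limma) in Foxp3DTR MI against WT MI. With single libraries left out, 0 genes were called in the 2 comparisons with WT MI and 0 to 1 in Foxp3DTR MI against WT sham, the 1 being Mrpl49 without sham replicate 3 (adjusted p 0.0450 by limma). The medians then ran from −0.03 to 0.13, 0.03 to 0.16 and 0.09 to 0.17. All other alternatives called 0 of the 77. Of 660 values of named genes under alternatives, 654 kept their direction and side of the threshold.

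Same-numbered libraries correlated between −0.19 and 0.19 in their deviations, so the numbers were not taken to pair samples. With the replicate number as a block, 0 of the 77 genes were called in each comparison, with medians of 0.04, 0.09 and 0.15, and over all genes 81 instead of 145 were called in Foxp3DTR MI against WT MI and 16 instead of 70 in Foxp3DTR MI against WT sham. Over all genes, Foxp3DTR MI against WT MI called 22 without a filter, 74 without the variance trend, 398 with array weights, 527 without scaling and 583 with only the 2 groups in the fit. With single libraries left out, that count ran from 0 to 431, and from 3 (without sham replicate 1) to 636 (without sham replicate 3) in Foxp3DTR MI against WT sham.

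Depth limits the lowest genes most. Mrps6 and Mrpl41 rested on a median of 14.3 and 13.7 estimated reads, and 3 or 4 libraries per group leave intervals of 0.36 (comparisons with Foxp3DTR MI) and 0.38 (WT MI against WT sham) on either side of a typical log2 fold change.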
